A study of Mus musculus with 8 samples.

Results

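The comparison described here is that of stomach RNA from Lgals8 null mice, which lack galectin-8, with stomach RNA from wild-type C57BL/6J mice, both at 8 weeks of age. The genotype and age in the sample labels chose 4 of the 8 RNA-seq libraries of the series: 2 knockout and 2 wild-type libraries, each named below by its replicate number. All 40481 genes of the deposited table belong to the comparison, and 19647 of them had enough counts to be tested. The other 4 libraries, from the same genotypes at 3 weeks, entered the same model and are given beside the 8-week values. The labels give no treatment, and do not name the null allele, the sex of the mice or the strain in which the knockout was kept. Nothing in them says that replicates came from separate mice, and p-values then measure only the spread between these samples, which may be technical.

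Galectin-8 is a secreted and cytosolic lectin that binds galactose-containing glycans through a pair of linked carbohydrate recognition domains. Outside the cell it binds glycoproteins such as integrins and podoplanin, and inside the cell it binds glycans exposed on damaged endosomes and lysosomes and recruits autophagy receptors to them. In the glandular stomach, chief cells at the base of the gland secrete digestive zymogens, parietal cells secrete acid, mucous cells line the neck and the surface, and endocrine cells release hormones such as somatostatin and ghrelin. The series title asks about the role of galectin-8 in maturation of the mouse stomach.

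Levels are CPM, each gene's count scaled to a common library size after TMM normalisation, and changes are log2 fold changes, knockout minus wild type, with their standard error (SE). A gene is called when the Benjamini-Hochberg adjusted p of edgeR's quasi-likelihood test over the 19647 tested genes is under 0.05. Totals ran from 58851837 to 80686621 counts per library. The knockout libraries at 8 weeks differed from each other by over 1 log2 unit in 3278 genes and the wild-type libraries in 2570, against 1321 and 1579 in the 3-week pairs. With 2 libraries against 2, an exact two-sided permutation test cannot go below 0.333, so single genes rest on the model fitted across all genes. The model takes a shared spread from all 8 libraries. The 3-week pairs lay closer together, with median gaps of 0.13 and 0.14 (log2) against 0.23 and 0.27 at 8 weeks. The SE and p-values at 8 weeks may therefore be too small. Changes are relative to TMM scaling; scaling by library totals moves the median of all genes by 0.35 (log2).

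Lgals8 itself (ENSMUSG00000057554, chromosome 13, 12439415 to 12464944, GRCm38) was at 37.6 and 36.4 CPM in wild type and at 1.94 and 4.16 CPM in knockout. Both knockout libraries were far below both wild-type libraries, in the direction of their label, and neither was at 0. The log2 fold change was -3.60 (SE 0.39, adjusted p 0.040). When 1 of the 8 libraries was left out in turn, the log2 fold change lay between -4.25 and -3.13. Lgals8 was the 1 called gene whose fold moved by over 1.5 times in these fits.

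At 8 weeks 16 genes rose and 48 fell in the knockout, which is 0.0814% and 0.244% of the genes tested. Genes of gastric digestive secretion and gastric hormones were among those that fell, while the genes that rose included a monocyte chemokine and receptors of the TNF and cytokine families. The knockout libraries lay on one side of both wild-type libraries in all 64 called genes. The median change was 2.24-fold in those that rose and 2.01-fold in those that fell, and 29 of the 64 changed by less than 1 log2 unit. Over all tested genes the median change was 0.0012, both knockout libraries were above both wild-type libraries in 4222 genes (21.5%) and below both in 4317 (22%), and 3776 genes had an unadjusted p under 0.05.

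The number of calls rests on single libraries. It was 2 higher and 1 lower without wild-type replicate 1 and 7 and 11 without wild-type replicate 2, and 1 or 2 in all without any one of the 3-week libraries. It was 970 higher and 285 lower without knockout replicate 1 and 688 and 471 without knockout replicate 2. When edgeR was given just the 4 libraries of 8 weeks, it called 0 genes, and 2046 had an unadjusted p under 0.05. The direction of each of the 64 was the same in every one of these fits. The groups did not overlap in any of the 64, so leaving out a library left little room for a reversal. The unchanged direction is therefore no separate evidence for the calls.

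**Figure D1:**
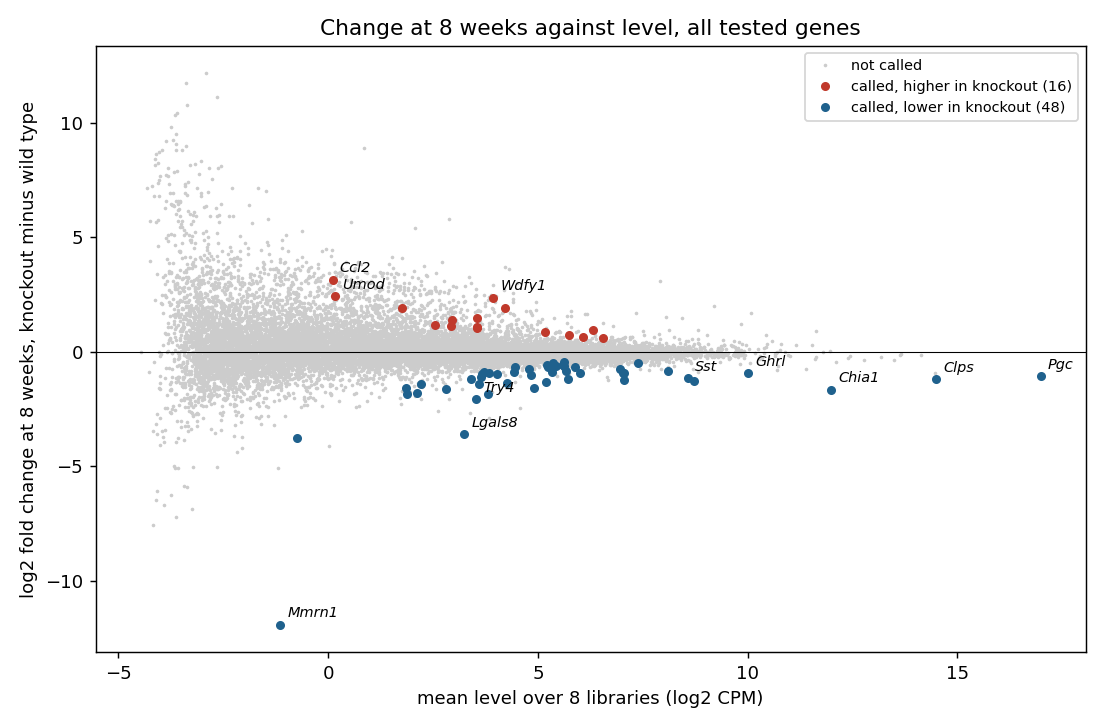
Each point is 1 of the 19647 tested genes, with its mean level over the 8 libraries (log2 CPM, horizontal) and its change at 8 weeks (log2 fold change, knockout minus wild type, vertical); coloured points are the 16 called higher and 48 called lower. Pgc, Clps and Chia1 are called at the highest levels, and the fitted value of Mmrn1, which had 0 counts in both knockout libraries, is not a measured fold.

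Digestive enzymes of the gastric gland held the most abundant called genes, and every one of them fell. Pgc, which encodes the zymogen pepsinogen C, was at 307299 and 304338 CPM in wild type and at 131885 and 159512 CPM in knockout. The wild-type libraries nearly coincided and the knockout libraries were both near the middle of the range between 0 and them. The fall was 2.10-fold (log2 fold change -1.07, SE 0.15, adjusted p 0.043). In bulk RNA, fewer cells of a type and less RNA per cell cannot be told apart, here and in every result below.

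Chia1, the gene for acidic chitinase, which chief cells of the mouse stomach secrete, was at 37266 and 36400 CPM in wild type and at 10018 and 13279 CPM in knockout. The groups did not overlap, and the fall was 3.16-fold (SE 0.22 on the log2 scale, adjusted p 0.042). Clps, the gene for colipase, a cofactor of lipases that is best known from the pancreas, was at 76922 and 80863 CPM in wild type and at 30478 and 37995 CPM in knockout. Knockout replicate 1 was the lower of the knockout pair in all 3 genes, and the fall of Clps was 2.30-fold (SE 0.15, adjusted p 0.037).

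Gif, the gene for gastric intrinsic factor, which mouse chief cells secrete to bind vitamin B12, was at 4334 and 4398 CPM in wild type and at 2127 and 3012 CPM in knockout. Its groups did not overlap either, but it was not called (log2 fold change -0.76, SE 0.16, adjusted p 0.092). Pga5, another pepsinogen gene, was at 149 and 141 against 158 and 239 CPM, with both knockout libraries above wild type and no call. Cym, which encodes the milk-clotting protease chymosin, was high in wild-type replicate 1 (52.4 CPM) and knockout replicate 1 (190 CPM) and low in both second replicates (12 and 18.4 CPM). Of the 5 chief cell enzyme genes tested, 2 fell and 3 were not called, with a median log2 fold change of -0.76.

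The promoters of Pgc and Chia1, the most abundant called genes with an entry in the RefSeq-derived promoter table (GRCm38.p6), are shown for the 250 bases before the annotated start, 5′ to 3′ on the gene's strand. Pgc lies at chr17:47726592-47726841 (plus strand) and Chia1 at chr3:106113132-106113381 (plus strand). Capitals mark the letters TATAAA, which begin at -31 in Pgc and at -43 in Chia1, counted from the start of transcription.
Pgc: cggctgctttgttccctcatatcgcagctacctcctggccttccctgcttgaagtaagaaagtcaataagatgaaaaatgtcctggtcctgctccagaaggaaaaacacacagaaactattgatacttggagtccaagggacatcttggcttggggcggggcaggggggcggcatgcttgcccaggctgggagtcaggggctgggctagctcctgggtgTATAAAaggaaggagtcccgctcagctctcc
Chia1: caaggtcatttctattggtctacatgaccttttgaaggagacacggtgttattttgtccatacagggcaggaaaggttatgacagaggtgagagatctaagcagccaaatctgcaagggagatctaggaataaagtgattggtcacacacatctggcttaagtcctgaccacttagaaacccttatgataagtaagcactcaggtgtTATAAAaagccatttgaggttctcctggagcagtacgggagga
TATAAA on either strand was found in 3 of 5 promoter windows of the called chief cell, secretory and acinar genes, against 13.6% of all 32851 windows of 300 bases. The E-box letters CAGCTG and CATATG, forms that MIST1 is known to bind, were found in 0 of these 5 windows, against 16.3% and 3.91% of all windows. These counts describe letters only, and TATAAA was chosen after the windows had been read.

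The gene for MIST1, Bhlha15, a transcription factor that builds the secretory apparatus of chief and other zymogenic cells, also fell. It was at 77.9 and 107 CPM in wild type and at 36.4 and 43.8 CPM in knockout, a 2.30-fold fall (SE 0.17 on the log2 scale, adjusted p 0.047). Tmed6, which encodes a p24-family protein of early secretory vesicles, was at 261 and 315 CPM against 133 and 171 CPM, a 1.89-fold fall (adjusted p 0.049). The groups did not overlap in either gene. The other 5 tested genes of the secretory maturation list were not called. Copz2, a coat protein subunit, was at 38 and 42.1 against 25.4 and 28.6 CPM, and the transcription factor Xbp1 at 466 and 402 against 349 and 345 CPM, both below wild type in both libraries.

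Genes of the exocrine pancreas were listed as markers of neighbouring tissue, but Clps made up 76922 of their summed 77244 CPM in wild-type replicate 1. Of 16 tested, 11 were below wild type in both knockout libraries and 1 above, against 22% and 21.5% of all genes, and the median log2 fold change was -0.94. Clps and Try4 fell. Try4, a trypsinogen gene, was at 70.7 and 95.3 CPM in wild type and at 16.3 and 22.8 CPM in knockout (4.25-fold lower, adjusted p 0.037), and its counts are uncertain because trypsinogen copies share reads. Defining acinar genes were near 0 in all 4 libraries: Prss2, Ctrb1 and Pnlip were each at or under 0.559 CPM, and Cpa1 and Cela3b had too few counts to be tested. The list is therefore not read as a measure of pancreatic tissue.

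Anpep, which encodes aminopeptidase N of the brush border, was at 335 and 309 CPM in wild type and at 184 and 178 CPM in knockout (1.78-fold lower, adjusted p 0.022). Tmprss9, a membrane serine protease gene, fell 1.70-fold, and Nucb2, the gene of the nesfatin precursor, fell 1.79-fold. Hamp2, a mouse paralogue of the iron hormone hepcidin, was at 147 and 138 against 77.5 and 77.3 CPM (1.84-fold lower, adjusted p 0.039), with both pairs tight.

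Of the endocrine genes, 2 hormone genes fell. Sst, which encodes somatostatin, the brake on gastric acid and gastrin release, was at 617 and 546 CPM in wild type and at 251 and 273 CPM in knockout. The fall was 2.22-fold (log2 fold change -1.15, SE 0.09, adjusted p 0.012). Ghrl, which encodes the appetite hormone ghrelin, was at 1448 and 1359 CPM against 668 and 795 CPM, a 1.92-fold fall (SE 0.10, adjusted p 0.035). Neither hormone gene overlapped between the groups, and the knockout pairs spread by less than the distance between groups.

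Of 11 hormone genes tested, these 2 fell and 9 were not called. Gcg, the proglucagon gene, was at 5.95 and 5.27 against 0.734 and 1.93 CPM (log2 fold change -2.08, SE 0.39, adjusted p 0.078). Gast, the gene for gastrin, which marks the antrum, was at 0.0449 and 0 CPM in wild type and at 19.4 and 0.222 CPM in knockout, so that its level rests on knockout replicate 1. Cck was at 0.180 and 1.12 against 3.41 and 15.6 CPM, with knockout replicate 2 the highest.

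Granule and amine genes were mixed: 5 of 15 were below wild type in both knockout libraries, 2 above, and 0 were called. Of all genes, 22% were below and 21.5% above. Chga, which encodes chromogranin A of hormone granules, was at 666 and 677 against 334 and 454 CPM (log2 fold change -0.77, SE 0.13, adjusted p 0.072). Slc18a2, the vesicular monoamine transporter of histamine-releasing cells, was at 21.2 and 26.9 against 15.2 and 16.0 CPM, Cpe, which encodes a prohormone-trimming carboxypeptidase, at 99.5 and 121 against 92.4 and 164 CPM, while Hdc, which makes histamine, overlapped between groups (41.2 and 48.5 against 30.6 and 47.0 CPM). Among 13 endocrine transcription factor genes 0 were called, and Isl1 was at 14.4 and 15.2 against 9.69 and 8.54 CPM (log2 fold change -0.70, adjusted p 0.058) and Insm1 at 4.31 and 4.23 against 2.14 and 2.97 CPM.

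Of 9 genes of receptors for gastric hormones, 6 were below wild type in both knockout libraries and 1 above. The shares of all genes were 22% and 21.5%, and the list's median was -0.64. Cckar, the receptor for cholecystokinin, fell from 177 and 193 CPM to 86.6 and 109 CPM (1.90-fold lower, SE 0.12 on the log2 scale, adjusted p 0.042). Gper1, a membrane estrogen receptor gene, was at 50.6 and 69.0 against 28.9 and 34.7 CPM and was not called (adjusted p 0.11). Sstr2, a somatostatin receptor gene, was at 32.9 and 25.6 against 19.8 and 24.1 CPM.

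**Figure D2:**
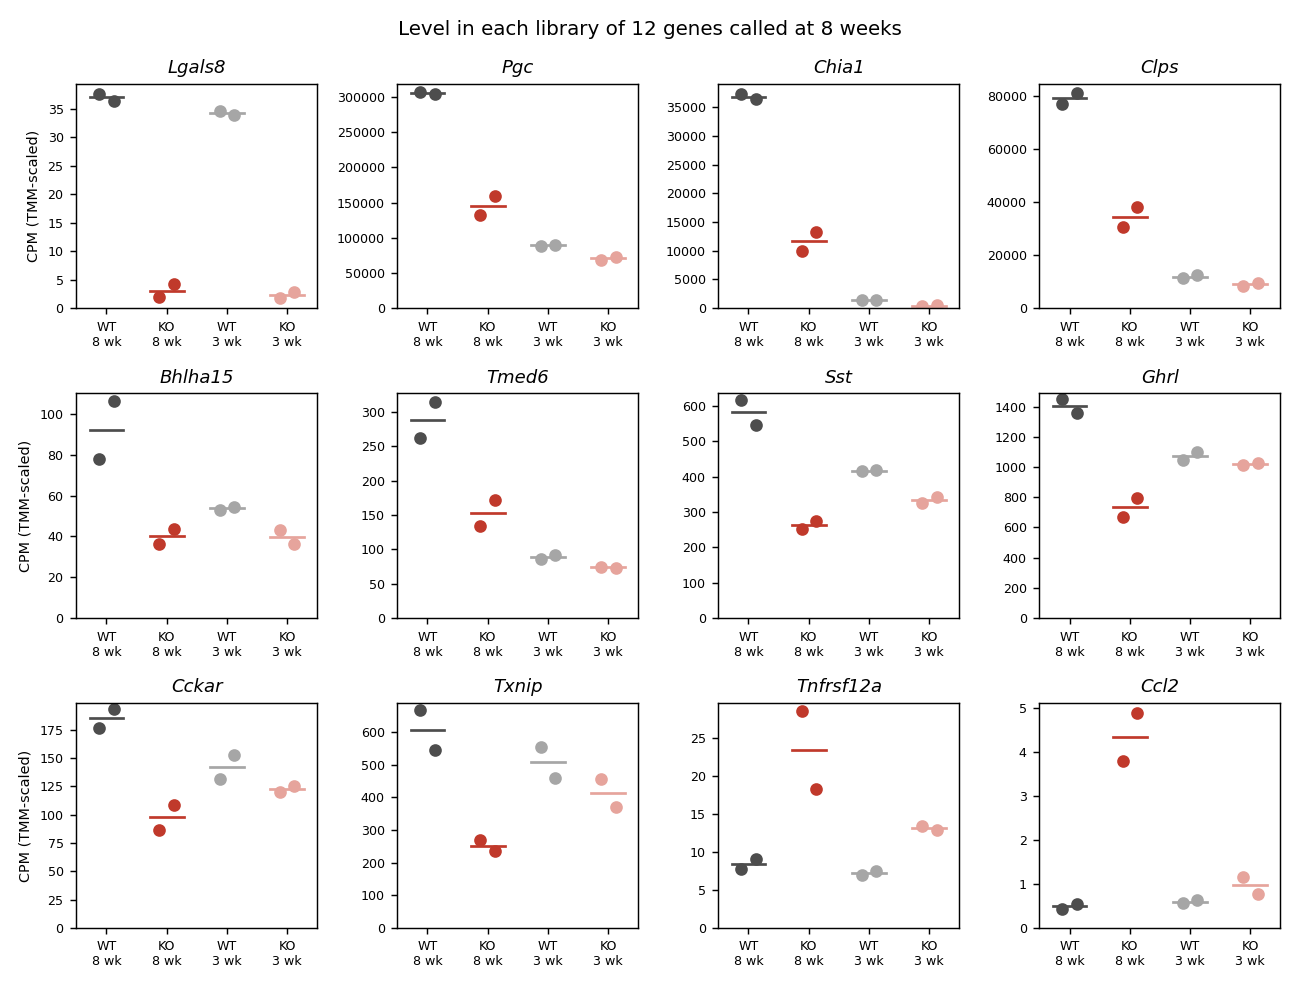
Points are the CPM level in each of the 8 libraries and bars the mean of the 2 libraries of a group, for 12 genes called at 8 weeks, on linear axes that start at 0. In each panel both knockout libraries at 8 weeks lie on one side of both wild-type libraries; Pgc, Chia1 and Clps are far higher at 8 weeks than at 3 weeks in both genotypes.

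Several genes with a part in metabolism were called, while the oxidative phosphorylation and sterol synthesis lists held 0 called genes. Txnip, which encodes a thioredoxin inhibitor that restrains glucose uptake, was at 666 and 544 CPM in wild type and at 269 and 234 CPM in knockout (2.40-fold lower, SE 0.15, adjusted p 0.037). Dio1, which encodes a deiodinase that converts thyroxine to active thyroid hormone, was at 22.2 and 18.2 against 6.99 and 5.92 CPM (3.12-fold lower, SE 0.15, adjusted p 0.030). Aldh1l2, a mitochondrial enzyme of folate metabolism, was at 28 and 29.7 against 9.85 and 11.6 CPM (2.69-fold lower, SE 0.18, adjusted p 0.037). The groups were well apart in each.

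Pycr1 of proline synthesis fell 1.68-fold and Bckdhb of branched-chain amino acid breakdown 1.56-fold. Ugt1a7c, a glucuronosyltransferase gene that shares exons with its neighbours so that its counts are uncertain, fell 2.25-fold. Macrod1, which encodes an ADP-ribose hydrolase, fell 1.48-fold. Around Dio1, 8 other thyroid hormone genes were not called: Dio2, the other activating deiodinase, was at 1.14 and 1.09 against 2.85 and 3.59 CPM (log2 fold change 1.53, SE 0.26, adjusted p 0.071), and the target gene Klf9 at 107 and 87.5 against 68.2 and 75.5 CPM.

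Genes of nuclear and signalling proteins also fell. Blm, which encodes a RecQ helicase of DNA repair, was at 45.2 and 29.1 CPM in wild type and at 8.58 and 11.9 CPM in knockout (3.63-fold lower, SE 0.24, adjusted p 0.042). Its partner genes were not called: Top3a was at 10.1 and 7.49 against 6.93 and 6.95 CPM and Rmi1 at 4.85 and 4.99 against 6.45 and 5.95 CPM. Of 15 genes of the DNA repair list, 1 fell, 8 were below wild type in both knockout libraries and 3 above. The shares of all genes were 22% below and 21.5% above. Nabp1, which encodes a single-stranded DNA binding protein, fell 1.83-fold and the transcription factor gene Klf11 2.14-fold.

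The Notch receptor gene Notch3 fell 1.59-fold (19.3 and 19.5 against 12 and 12.4 CPM) and Maml3, a coactivator of Notch signalling, 1.94-fold. Gdf9, a TGF-beta family gene known from the oocyte, was at 19.5 and 19.7 against 4.35 and 6.93 CPM (3.47-fold lower, adjusted p 0.037). Wnk4, an ion transport kinase gene, fell 2.05-fold. Rnf167, which encodes an endosomal and lysosomal ubiquitin ligase, was at 57.0 and 52.8 against 18.3 and 18.8 CPM (2.96-fold lower, SE 0.09, adjusted p 0.0025). When 1 of the 8 libraries was left out in turn, its log2 fold change lay between -1.62 and -1.51.

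The remaining genes that fell were of scattered function. Ripor3 fell 3.57-fold, Ush1g, a scaffold of hair cells, 3.00-fold, and Tnni3, the cardiac troponin I gene, 2.33-fold. The basement membrane collagen gene Col4a3 fell 1.91-fold and the membrane protein gene Tmem64 1.61-fold. Ttc38, Fam149a, the Rab GTPase regulator Tbc1d16, the lipid transfer protein gene Vps13c and the tight junction protein gene Usp53 fell 1.60-, 1.54-, 1.5-, 1.41- and 1.38-fold.

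3 genes with RIKEN names fell, 1700110K17Rik by 2.64-fold, 4930452B06Rik by 1.97-fold and 4833439L19Rik by 1.41-fold. Tomm6os, an antisense gene 35759 bases from Pgc, fell 1.84-fold. Tomm6os and 1700110K17Rik are annotated as antisense, and whether counting used strand is not stated in the labels, so reads of a partner on the other strand cannot be told apart.

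Mmrn1, which encodes multimerin 1 of platelets and endothelium, had 7.85 and 6.02 CPM in wild type and 0 counts in both knockout libraries, at least 152-fold lower against a floor of 3 counts per library (adjusted p 0.012). It was also at 0 in both knockout libraries at 3 weeks. For Mmrn1, as for the other called genes beside Lgals8, loss of Lgals8 and a strain difference between the mice cannot be told apart.

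Among the genes that rose, Ccl2, the chemokine that draws monocytes to tissue, had the largest change. It was at 0.426 and 0.543 CPM in wild type and at 3.79 and 4.87 CPM in knockout (8.87-fold higher, log2 fold change 3.15, SE 0.35, adjusted p 0.035), a low level in all 4 libraries. Tnfrsf12a, which encodes the receptor of the cytokine TWEAK, was at 7.79 and 9.14 against 28.5 and 18.3 CPM (2.76-fold higher, SE 0.21, adjusted p 0.044). Crlf2, a subunit of the receptor for thymic stromal lymphopoietin, was at 3.32 and 3.53 against 7.37 and 8.24 CPM (2.28-fold higher, adjusted p 0.042). Ccl2 and Crlf2 were highest in knockout replicate 2 and Tnfrsf12a in replicate 1.

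Their pathway partners were not called. Of 13 TWEAK and TNF receptor genes, 8 were above wild type in both knockout libraries and 0 below, with a median of 0.22. The shares of all genes were 21.5% above and 22% below. The ligand gene Tnfsf12 was at 8.69 and 9.17 against 9.16 and 7.99 CPM, while Birc3, a target of noncanonical NF-kappaB signalling, was at 8.55 and 8.36 against 13.9 and 11 CPM and Relb at 11.1 and 9.78 against 19.6 and 13.8 CPM. Among 14 cytokine genes Ccl2 alone was called. Il33, the gene of an epithelial alarmin, was at 43.2 and 76.7 against 165 and 168 CPM (log2 fold change 1.47, SE 0.41, adjusted p 0.15), and the wild-type pair differed more than the knockout pair.

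Matrix and cell cycle regulators were represented by single genes. Adamts4, which encodes a proteoglycan-cleaving protease, was at 0.853 and 1.15 CPM in wild type and at 3.61 and 3.99 CPM in knockout (3.77-fold higher, SE 0.25, adjusted p 0.040), and 12 other matrix protease genes tested were not called. Cdkn2b, which encodes the cyclin-dependent kinase inhibitor p15, was at 43.0 and 45.9 against 70.0 and 76.3 CPM (1.65-fold higher, SE 0.09, adjusted p 0.037). Proliferation genes were not called in any of 16 cases. Of the 16, 11 lay above both wild-type libraries and 0 below, against 21.5% and 22% of all genes. Top2a was at 21.1 and 26.4 against 27.7 and 29.7 CPM, while Mki67 overlapped between groups. Pcna was at 45.3 and 45.4 against 45.8 and 46.7 CPM and Mcm6 at 33.8 and 30.6 against 34 and 36.1 CPM.

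Umod, best known as the kidney protein uromodulin, was at 0.584 and 0.703 against 3.99 and 2.91 CPM (5.34-fold higher, SE 0.31, adjusted p 0.040). 2010109I03Rik was at 14.1 and 12.4 against 57.5 and 42.2 CPM (3.76-fold higher, adjusted p 0.047). The kinesin gene Kif21b rose 2.63-fold, the leukocyte formin gene Fmnl1 2.10-fold, and Gpr155, a lysosomal cholesterol sensor gene, 1.95-fold. Rpp25, a subunit of ribonuclease P and MRP, rose 1.82-fold, Basp1 1.58-fold and the 14-3-3 protein gene Ywhah 1.51-fold.

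Wdfy1, which encodes an endosomal FYVE-domain protein, was at 4.80 and 8.36 against 35.7 and 32.5 CPM (5.16-fold higher, SE 0.24, adjusted p 0.035).

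Several called genes lie near Lgals8 on chromosome 13. Of the 100 other tested genes within 10 megabases of it, 5 were called (5%), against 58 of 19546 tested genes elsewhere (0.297%); the window was chosen after the positions had been seen. Ero1lb, an oxidoreductase gene of the endoplasmic reticulum that lies 100930 bases from Lgals8, was at 66.1 and 77.5 against 26.8 and 30.9 CPM (2.49-fold lower, adjusted p 0.035). Gpr137b, which encodes a lysosomal membrane protein and lies 892676 bases away, was at 4.53 and 4.47 against 9.57 and 10.3 CPM (2.21-fold higher, adjusted p 0.037).

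The aldo-keto reductase genes Akr1c14 and Akr1c19, at 4049011 and 4228700 on the same chromosome, fell 1.88- and 2.56-fold. The pseudogene Marcksl1-ps4, which overlaps Akr1c19, fell 13.8-fold from 2.04 and 2.40 to 0.206 and 0.111 CPM. Loss of Lgals8, an effect on its neighbours and a strain difference between the mice cannot be told apart in this design.

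The called genes are given beside their 3-week values as a description; they were selected by their 8-week change, which favours a larger change and a difference between ages at 8 weeks. Of the 64, 61 had the same sign at 3 weeks (14 of 16 that rose and 47 of 48 that fell), and 59 had the larger change at 8 weeks. The share of all tested genes with the same sign at both ages was not counted. For Ghrl the log2 fold change was -0.07 at 3 weeks and -0.94 at 8 weeks, for Sst -0.32 and -1.15, and for Ccl2 0.70 and 3.15. Chia1 (-1.63 and -1.66), Ero1lb (-1.33 and -1.32), Wdfy1 (2.46 and 2.37) and Lgals8 (-3.94 and -3.60) were nearly equal at both ages. The test of the difference between ages called 0 genes with edgeR, and 1727 of 19647 had an unadjusted p under 0.05.

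**Figure D3:**
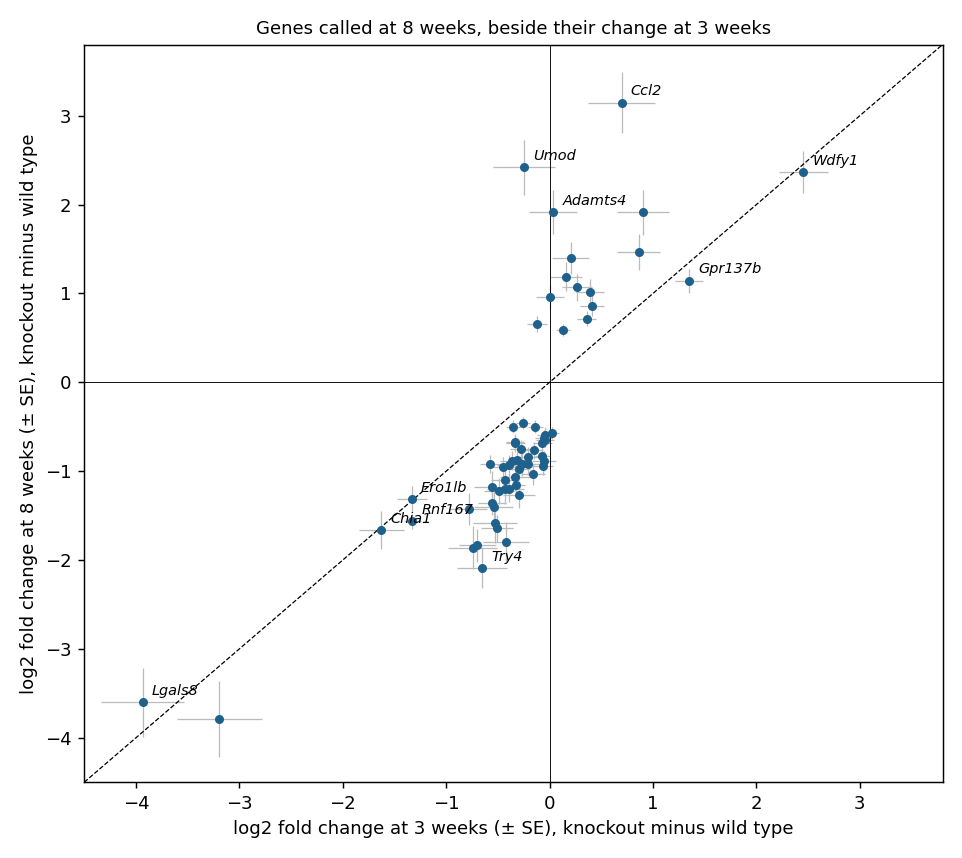
The log2 fold change (knockout minus wild type, ± SE) at 3 weeks (horizontal) and 8 weeks (vertical) of 63 of the 64 called genes, without Mmrn1, whose fitted value is no measured fold; the dashed line marks equal changes. Ccl2, Umod and Adamts4 lie far above the line, while Wdfy1, Chia1 and Ero1lb lie close to it.

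The other gene lists hold textbook markers of cell types and processes and are described by counts and medians, to be read against 21.5% of all genes above and 22% below both wild-type libraries and against a median of 0.0012. Of 59 lists with 720 tested genes, 15 genes in 11 lists were called, against 64 of all 19647 tested genes. Over the same 720 genes, 147 were higher and 78 lower at an unadjusted p under 0.05 in edgeR. DESeq2 called 92 of the 720 higher and 53 lower, and limma voom 0 and 7. Over all 19647 genes, 3776 had an unadjusted p under 0.05 in edgeR. DESeq2 called 1010 of the 19647 higher and 747 lower, and limma voom 2 and 20. In the 48 lists with no called gene, DESeq2 called 76 of 598 genes higher and 29 lower, and limma voom 0; edgeR had 124 higher and 49 lower at an unadjusted p under 0.05. Under scaling by library totals 18 of the 59 medians change sign, all from below to above 0: those of secretory maturation, parietal, surface mucous and stem cells, hormones, endocrine transcription factors, smooth muscle, fibroblasts, endothelium, adipocytes, autophagy, DNA repair, oxidative phosphorylation, clock, oxidant defence, sterol synthesis, thyroid hormone and Hedgehog to Notch signalling.

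**Figure D4:**
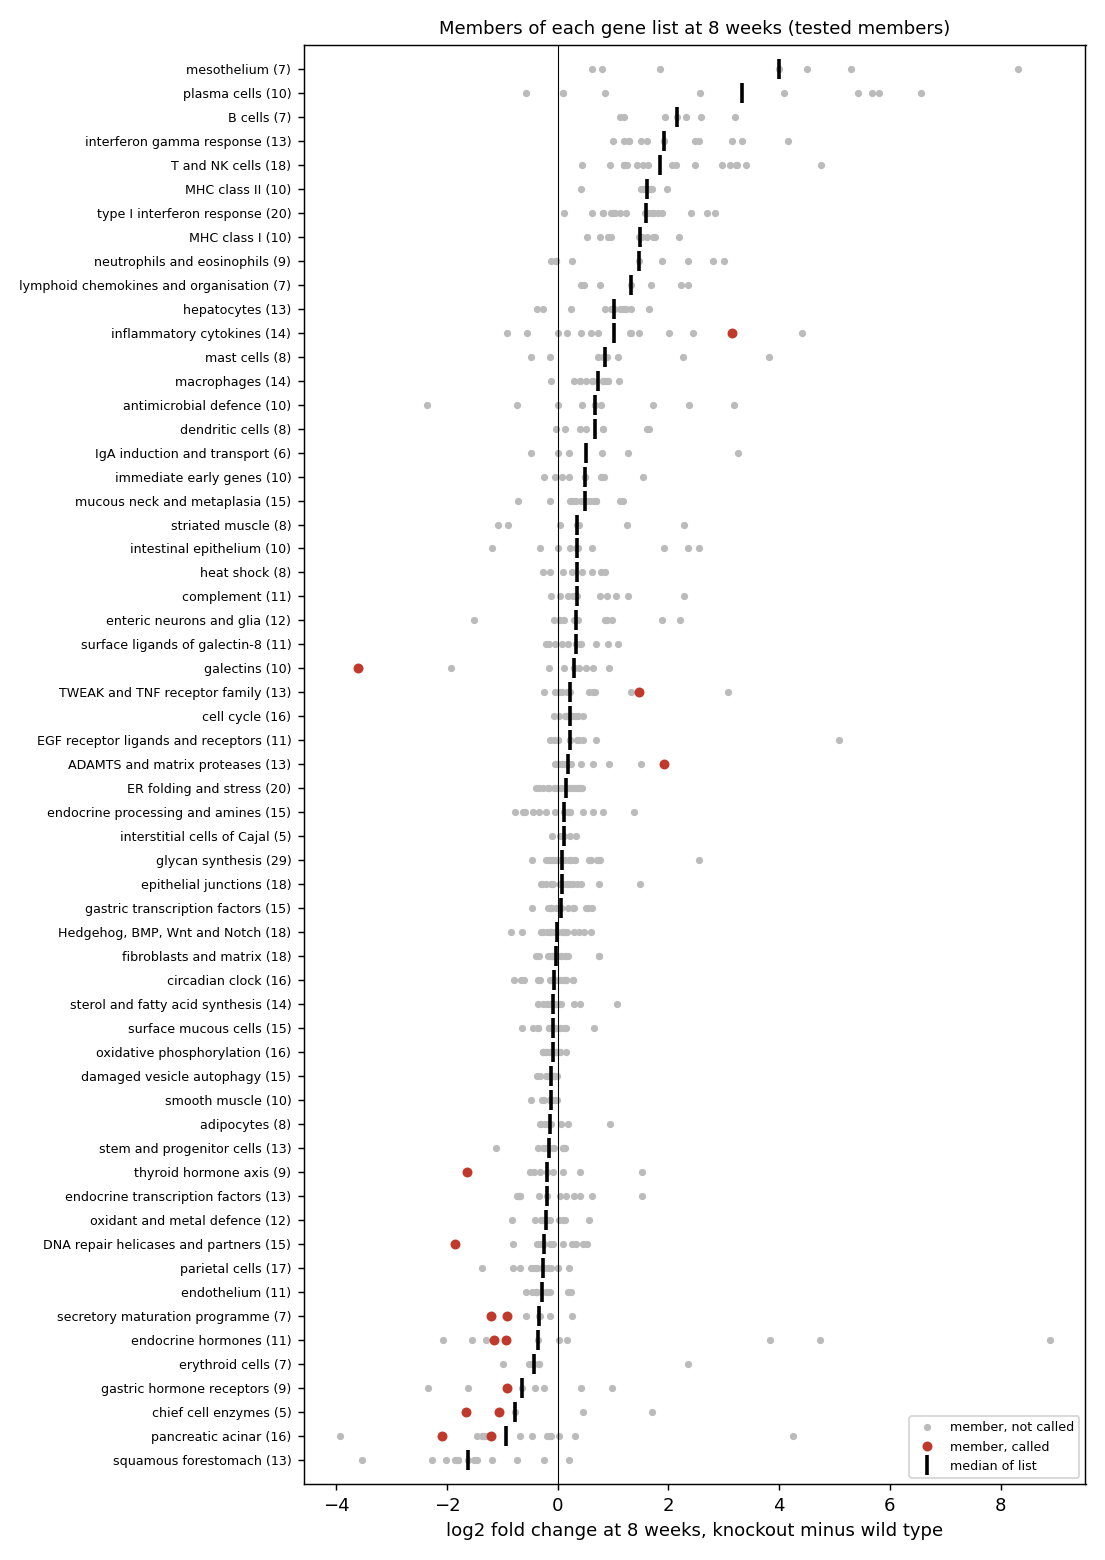
Each row is 1 of 59 gene lists (number of tested members in brackets), each point a member's log2 fold change at 8 weeks (knockout minus wild type), red where called, and the black bar the median of the list. The squamous forestomach list has the lowest median, -1.62, which was 6.38 without wild-type replicate 2. Acinar, chief cell and hormone receptor lists come next at the lower end. Immune lists lie at the upper end, and the mesothelium list has the highest median, 3.99.

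Acid-secreting parietal cells had 0 of 17 genes called and 10 below both wild-type libraries (median -0.27). The proton pump genes were at 15390 and 13084 against 9995 and 12071 CPM for Atp4a, and at 8047 and 6613 against 5367 and 6772 CPM for Atp4b, whose groups overlapped. The potassium channel gene Kcnj15 was at 512 and 474 against 343 and 366 CPM (log2 fold change -0.48, SE 0.09, adjusted p 0.076), and Hrh2, the histamine receptor that drives acid secretion, at 43.7 and 32.2 against 21.6 and 25.9 CPM. Under scaling by library totals the list's median was 0.08.

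Of the surface mucous cell genes 0 of 15 were called, 4 below and 1 above (median -0.09). The gastrokine gene Gkn1 was at 31183 and 25521 against 26541 and 24409 CPM and Gkn2 at 21794 and 18270 against 18506 and 17804 CPM. Muc5ac, the surface mucin gene, was at 3624 and 3856 against 2726 and 2072 CPM (log2 fold change -0.64, SE 0.16, adjusted p 0.12).

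Mucous neck and metaplasia genes pointed the other way, with 0 of 15 called, 8 above and 1 below (median 0.49). Clu, which encodes the chaperone clusterin, was at 1131 and 1264 against 1803 and 1551 CPM, and Tff2, a trefoil peptide of neck cells, at 971 and 1001 against 1401 and 1226 CPM. Agr2, a disulfide isomerase gene of mucous cells, was at 330 and 320 against 556 and 413 CPM, and Cd44 at 11.7 and 12.9 against 24.2 and 15.3 CPM. Muc6, the neck mucin gene, did not separate the groups (497 and 789 against 767 and 396 CPM). Knockout replicate 1 was the higher of the pair in 13 of the 15, and without it the median was 0.23.

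Stem and progenitor genes had 0 of 13 called and 6 below (median -0.16), with Lgr5, a base-of-gland stem cell gene, at 9.16 and 4.04 against 3.29 and 2.82 CPM. The most abundant of them, Lrig1, a restraint on growth factor receptors, was at 151 and 149 against 123 and 130 CPM, and Lgr4, an R-spondin receptor gene, at 147 and 118 against 116 and 112 CPM. Gastric transcription factor genes split evenly, 4 above and 4 below of 15, with Gata4 at 296 and 277 against 290 and 272 CPM, Klf4 at 549 and 403 against 592 and 399 CPM and Spdef, a regulator of mucous secretion, at 54.7 and 59.5 against 94.4 and 67.8 CPM. Junction genes had 2 of 18 above and 1 below; Cdh1, which encodes E-cadherin, was at 647 and 541 against 769 and 585 CPM, Cldn18, the gastric claudin, was at 1026 and 843 against 1150 and 961 CPM and Cldn23 at 1.35 and 1.23 against 4.58 and 2.61 CPM (log2 fold change 1.48, SE 0.29, adjusted p 0.078).

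Markers of tissue outside the glandular mucosa differed between libraries of the same group. The summed level of 13 squamous forestomach genes was 77.8 CPM in wild-type replicate 1 and 844 CPM in replicate 2, with 218 and 338 CPM in knockout. All 13 overlapped between the groups. Their median log2 fold change was -1.62, and 6.38 without wild-type replicate 2. Krt13 was at 1.5 and 207 against 42.3 and 82.3 CPM, whereas Sprr1a, also abundant in the list, was at 73.5 and 115 against 100 and 117 CPM. Hepatocyte genes were highest in knockout replicate 2 in 11 of 13 genes, with Alb at 103 and 26.2 against 75.2 and 330 CPM, while Apoa1, which other tissues also express, was at 2333 and 2082 against 1839 and 1826 CPM. Mesothelium genes lay above both wild-type libraries in both knockout libraries in 5 of 7 genes, with 5 of the 7 at an unadjusted p under 0.05 and none called, and were higher in knockout replicate 2 than in replicate 1 in all 7. Their median was 3.99, or 3.30 with the gene at 0 in a group set to its bound, and 2.00 without knockout replicate 2, with Msln at 0.0224 and 0.128 against 1.31 and 5.11 CPM, Gpm6a at 24.6 and 23.7 against 23.3 and 51.3 CPM and Rspo1 at 1.95 and 2.43 against 2.82 and 4.86 CPM.

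Enteric neuron and glia genes had 0 of 12 called, 5 above and 1 below, and all 12 were higher in knockout replicate 2 than in replicate 1. Their median was 0.33, and -0.11 without knockout replicate 2. The glial gene Gfap was at 2.24 and 3.68 against 5.55 and 16.4 CPM. The neuronal genes Uchl1 and Tubb3 were at 10.6 and 13.6 against 13.9 and 29.8 CPM and at 8.93 and 12.6 against 15.1 and 27.4 CPM, while neuronal Nos1 and Vip overlapped between groups. In the intestinal list 0 of 10 genes were called; the apolipoprotein gene Apoa4 was at 76.7 and 53.9 against 48 and 56.6 CPM, the brush border gene Vil1 at 32.8 and 24.6 against 56.4 and 31.7 CPM, Muc2 was at or under 0.575 CPM in each library, and Sis, Cdx1 and Cdx2 had too few counts to be tested. The part of these tissue differences in the called genes was not tested.

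Stromal lists had 0 called genes. Smooth muscle had 4 of 10 genes below (Myh11 at 957 and 1048 against 704 and 740 CPM) and 0 above, while Acta2 overlapped between groups at 1117 and 1272 against 778 and 1181 CPM, and fibroblasts and matrix 5 of 18 below and 2 above, with Col3a1 at 972 and 869 against 848 and 984 CPM and Col1a1 at 477 and 493 against 449 and 443 CPM. Endothelial genes had 5 of 11 below and 0 above (median -0.28), among them Kdr, the VEGF receptor gene, at 53.3 and 45.7 against 34.9 and 36.6 CPM. The most abundant of them, Plvap, was at 250 and 186 against 160 and 170 CPM and Pecam1 at 75.7 and 57.9 against 59.4 and 59 CPM. The interstitial cell of Cajal gene Kit was at 64.3 and 58.5 against 64.8 and 67.9 CPM, and Ano1, their chloride channel gene, at 46.7 and 31.4 against 42.9 and 36.8 CPM. Erythroid genes had 4 of 7 below and 1 above, adipocyte and striated muscle genes 1 each way of 8. The globin genes Hba-a1 and Hbb-bs, whose copies share reads, were at 70.7 and 49.3 against 48.9 and 45.3 CPM and at 53.8 and 38.9 against 36.5 and 36.5 CPM. In fat, Fabp4 was at 101 and 93.4 against 79.2 and 92.2 CPM and Cidec at 32.8 and 18.7 against 33.6 and 24.8 CPM; in striated muscle, Tnni2 was at 8.71 and 16 against 21.1 and 10.1 CPM and Ckm at 7.16 and 9.43 against 7.46 and 9.57 CPM.

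Immune lists held many genes above both wild-type libraries, with a wide gap between the knockout libraries and no called gene outside the cytokine list. Of 14 macrophage genes, 13 were above both wild-type libraries, with a median of 0.72. Lyz2, the lysozyme gene of myeloid cells, was at 119 and 102 against 219 and 125 CPM. C1qa, a complement subunit made by macrophages, was at 29.7 and 30.0 against 65.9 and 44.4 CPM (log2 fold change 0.89, SE 0.17, adjusted p 0.077), and Fcgr1, an Fc receptor gene, at 1.89 and 2.22 against 4.73 and 4.15 CPM (1.11, SE 0.20, adjusted p 0.072). Csf1r, the receptor on which macrophages depend, was at 45.4 and 33.5 against 56.7 and 47.8 CPM. None of these was called, and without knockout replicate 1 the median was 0.38.

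Plasma cell genes had 7 of 10 above and 1 below. Igha, the IgA heavy chain, was at 12.1 and 4.47 CPM in wild type and at 544 and 161 CPM in knockout, and Jchain, which joins IgA dimers, at 1.26 and 0.687 against 74.2 and 24.1 CPM. Igha was not called (log2 fold change 5.43, SE 0.92, adjusted p 0.093), and both pairs differed within themselves. The most abundant other member, Sdc1, which epithelium also expresses, was at 163 and 141 against 178 and 149 CPM. Pigr, the receptor that carries IgA across the epithelium, was at 3.88 and 5.77 against 80.1 and 12.7 CPM (adjusted p 0.19), and the IgA-inducing cytokine gene Tgfb1 at 21.7 and 18.2 against 24.8 and 21 CPM, in a list with 3 of 6 above and 1 below. B cell genes had 4 of 7 above and 0 below, with Ighm at 9.85 and 7.91 against 44.9 and 34.3 CPM and Cd79b at 0.987 and 0.783 against 2.57 and 1.3 CPM; Fcmr was above 0.1 CPM in knockout replicate 1 alone (0.558 CPM).

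T and NK cell genes had 8 of 18 above and 0 below, and knockout replicate 1 was the higher library in 17. Trac, the T cell receptor alpha constant gene, was at 0.0449 and 0.0479 against 2.06 and 0.538 CPM, while Cd3d was at 0 and 0.192 against 1.89 and 0.0633 CPM, within the wild-type range in replicate 2. Nkg7 was at 5.72 and 4.46 against 7.99 and 5.71 CPM, Cd4 at 4.13 and 2.94 against 8.74 and 4.86 CPM, and Gzma, a granzyme gene, at 0.224 and 0 against 0.617 and 0 CPM. Dendritic cell genes had 4 of 8 above and 0 below, with Itgax at 3.23 and 2.78 against 14.9 and 4 CPM and Zbtb46 at 4.56 and 4.33 against 4.38 and 4.3 CPM. Mast cell genes had 1 of 8 above: Mcpt1, a mucosal mast cell protease gene, was at 1.95 and 0.895 against 38.8 and 1.22 CPM and Mcpt2 at 4.62 and 4.51 against 40.1 and 3.96 CPM. Neutrophil and eosinophil genes had 5 of 9 above and 1 below, with Siglecf, an eosinophil marker, at 1.21 and 1.12 against 4.23 and 2.21 CPM, Mpo at 163 and 177 against 175 and 159 CPM and S100a8 at 12.7 and 12.4 against 12.1 and 11 CPM.

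Genes of antigen presentation followed. MHC class II genes had 9 of 10 above and 0 below (median 1.61); Cd74, the invariant chain, was at 149 and 139 against 708 and 224 CPM, and H2-Ab1 at 66.0 and 57.8 against 290 and 97.1 CPM, with the caveat that H2 copies share reads. MHC class I genes had 7 of 10 above (median 1.49), with B2m at 238 and 248 against 1081 and 318 CPM, H2-D1 at 443 and 419 against 1164 and 523 CPM and H2-K1 at 306 and 298 against 1250 and 410 CPM. Without knockout replicate 1 the medians were 0.65 and 0.26.

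Interferon-induced genes differed widely between the knockout libraries. In the type I list replicate 1 was above both wild-type libraries in 20 of 20 genes and replicate 2 in 6 of 20. Isg15, a ubiquitin-like antiviral protein gene, was at 5.36 and 14.6 CPM in wild type and at 65.5 and 8.04 CPM in knockout, and Bst2, which encodes tetherin, at 13.2 and 15.4 against 66.7 and 18.7 CPM. Oasl2 and Irf7, the most abundant members, were at 14.7 and 35.1 against 148 and 27.6 CPM and at 17.2 and 33 against 128 and 35 CPM. The median was 1.60 with both libraries and 0.08 without replicate 1, and 0 genes were called.

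In the interferon gamma list 12 of 13 genes were above in both libraries and 0 were called. Cxcl9, a T cell chemokine gene, was at 0.808 and 1.42 against 34.9 and 5.11 CPM (log2 fold change 4.15, SE 1.06, adjusted p 0.14). Irf1 was at 24.6 and 23.9 against 65.1 and 31.5 CPM and Gbp2 at 10.4 and 13.4 against 56.5 and 16.5 CPM. The list's median was 1.92, and 0.49 without replicate 1.

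**Figure D5:**
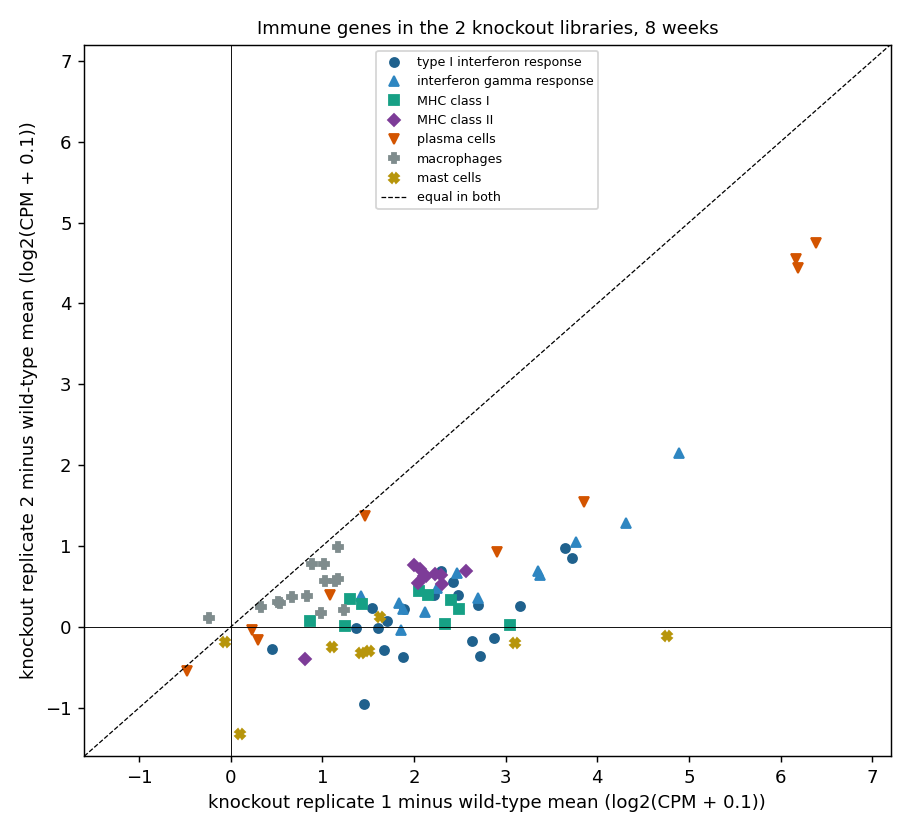
Each point is a gene of 7 immune lists at 8 weeks, placed by its log2 difference from the wild-type mean (log2(CPM + 0.1)) in knockout replicate 1 (horizontal) and replicate 2 (vertical); the dashed line marks equal values. Nearly all points lie below the line. Type I interferon and mast cell genes spread along the horizontal axis, mostly near 0 in replicate 2. In the interferon gamma list 12 of 13 genes were above both wild-type libraries in replicate 2. Macrophage genes lie closer to the line, and 3 plasma cell genes are high in both.

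The promoters of Isg15, Bst2 and Cxcl9 are shown because they carry the letters GAAANNGAA, the core of the interferon-stimulated response element, in capitals. They are the 250 bases before the start in the same table (GRCm38.p6, all on the minus strand), at chr4:156200819-156201068, chr8:71537473-71537722 and chr5:92328080-92328329. The letters begin at -78, -72 and -66 in Isg15, in overlapping copies, at -130 and -124 in Bst2 and at -175 in Cxcl9.
Isg15: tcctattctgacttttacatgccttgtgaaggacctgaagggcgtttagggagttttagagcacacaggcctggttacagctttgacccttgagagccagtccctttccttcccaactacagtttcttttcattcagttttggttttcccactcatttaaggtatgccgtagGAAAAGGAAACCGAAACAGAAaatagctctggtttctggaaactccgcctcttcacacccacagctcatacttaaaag
Bst2: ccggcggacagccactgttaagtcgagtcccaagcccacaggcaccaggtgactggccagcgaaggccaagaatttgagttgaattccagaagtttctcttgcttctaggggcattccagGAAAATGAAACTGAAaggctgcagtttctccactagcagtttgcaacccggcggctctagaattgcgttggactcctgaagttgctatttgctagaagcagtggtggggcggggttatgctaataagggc
Cxcl9: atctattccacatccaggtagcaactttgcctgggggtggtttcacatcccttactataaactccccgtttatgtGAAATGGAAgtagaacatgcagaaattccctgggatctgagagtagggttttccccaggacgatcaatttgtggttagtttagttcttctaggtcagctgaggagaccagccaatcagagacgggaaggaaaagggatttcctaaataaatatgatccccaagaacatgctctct
On either strand GAAANNGAA was found in 10 of 16 windows of 15 matched type I genes (62.5%) and in 8 of 11 windows of 9 matched interferon gamma genes (72.7%), against 8.56% of all 32851 windows. The called genes that fell held it in 4 of 39 windows (10.3%) and those that rose in 0 of 9. The interferon lists were made of textbook interferon-induced genes, so a high share of this element follows from the choice of genes. The shares come from promoter sequence alone and would be the same at any level of these genes. An interferon response in the knockout was therefore not tested by these counts.

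Lymphoid organising genes had 5 of 7 above and 0 below, with Ccr7 at 0.449 and 0.463 against 2.88 and 1.42 CPM, Madcam1 at 1.57 and 0.575 against 3.44 and 1.87 CPM and Ltb at 0.539 and 0.719 against 4.98 and 1.46 CPM. Antimicrobial genes had 3 of 10 above and 1 below; the epithelial oxidase gene Duox2 was at 171 and 135 against 300 and 113 CPM and its partner Duoxa2 at 58.1 and 44.2 against 109 and 54.1 CPM. The chemokine gene Ccl20 was at 0.0449 and 0 against 0.881 and 0.0316 CPM. Complement genes had 8 of 11 above and 0 below (median 0.34), with C3 at 123 and 92.0 against 296 and 223 CPM and C4b at 19.9 and 21.4 against 52.4 and 32.8 CPM, and Cfi at 125 and 118 against 158 and 141 CPM, none of them called.

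Other galectins and their partners bear on the missing lectin. Of 9 other galectin family genes tested, 6 were above both wild-type libraries and 0 below, none called. Lgals4, an intestinal and gastric galectin with near-identical copies that can share reads, was at 219 and 197 against 361 and 283 CPM (log2 fold change 0.63, SE 0.12, adjusted p 0.080). Lgals3 was at 53.1 and 44.9 against 76.2 and 63.1 CPM, and Lgals9, another galectin with paired domains, at 424 and 411 against 623 and 460 CPM. Lgals7 followed the squamous genes (0.404 and 45.3 against 4.04 and 7.94 CPM).

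Genes of damaged-vesicle autophagy, the pathway in which cytosolic galectin-8 acts, had 0 of 15 called, 9 below and 0 above, with small changes (median -0.12). Sqstm1, an autophagy receptor gene, was at 293 and 248 against 260 and 279 CPM, Tax1bp1 at 189 and 160 against 168 and 156 CPM, Ctsd, a lysosomal protease gene, at 862 and 777 against 800 and 755 CPM and Lamp1 at 690 and 635 against 610 and 607 CPM. Under library totals the median was 0.23. Genes of surface ligands had 6 of 11 above and 2 below: Itgb1, the beta 1 integrin gene, was at 264 and 248 against 251 and 248 CPM, Tfrc, the transferrin receptor gene, at 50.5 and 72.8 against 78.8 and 61.2 CPM, and Itga6 at 115 and 96.7 against 147 and 131 CPM. Of 29 glycan synthesis genes 6 were above and 1 below, with Gcnt3 at 305 and 256 against 324 and 271 CPM, B3gnt3 at 194 and 176 against 243 and 190 CPM and B4galt6 at 36.3 and 34.5 against 55.0 and 50.7 CPM (log2 fold change 0.58, SE 0.09, adjusted p 0.058).

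Stress and signalling lists had no called gene beyond those given above. Protein-folding genes of the endoplasmic reticulum had 8 of 20 above and 1 below (median 0.14), with Calr at 652 and 753 against 845 and 864 CPM, and Hspa5 was low in wild-type replicate 1 (465 against 1181, 952 and 1095 CPM). Heat shock genes had 4 of 8 above; Hsp90aa1 was at 209 and 287 against 438 and 409 CPM (log2 fold change 0.77, SE 0.14, adjusted p 0.072), Hspd1 at 178 and 183 against 221 and 208 CPM, and Hspa1b at 7.36 and 115 against 65.1 and 45.9 CPM. Immediate early genes had 6 of 10 above, with Egr1 at 21 and 18.8 against 29.5 and 39 CPM, while Jun was at 109 and 125 against 109 and 89.1 CPM and Junb at 129 and 110 against 161 and 113 CPM. EGF receptor genes had 5 of 11 above and 0 below, with the ligand gene Areg at 11.9 and 8.09 against 19.4 and 12.7 CPM and the receptor genes Erbb3 and Erbb2 at 99.6 and 72.7 against 95.9 and 59.8 CPM and at 100 and 70.1 against 96.1 and 66.5 CPM.

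Clock genes had 6 of 16 below and 1 above, with Dbp, a clock output gene, at 108 and 91.7 against 56.0 and 60.0 CPM (log2 fold change -0.79, SE 0.15, adjusted p 0.077) and Nr1d1 at 141 and 148 against 92.1 and 96.3 CPM, and Tef at 113 and 125 against 103 and 114 CPM; the hour of sampling is not given in the labels. Oxidant and metal defence genes had 6 of 12 below and 2 above, with Gclc at 115 and 105 against 88.1 and 90.8 CPM, Gsta4 at 1219 and 1046 against 1284 and 1015 CPM and Mt1 at 601 and 460 against 373 and 422 CPM. Oxidative phosphorylation genes had 5 of 16 below and 2 above, and sterol and fatty acid synthesis genes 0 of 14 below and 1 above, the desaturase gene Scd1 at 37.6 and 22.3 against 54.2 and 71.1 CPM. In these lists Atp5b was at 2465 and 2177 against 1916 and 2258 CPM, Atp5a1 at 1825 and 1633 against 1397 and 1638 CPM, Hmgcs1 at 309 and 221 against 174 and 238 CPM and Srebf2 at 232 and 188 against 198 and 195 CPM. Hedgehog, BMP, Wnt and Notch genes had 4 of 18 below and 2 above, with Bmp4 at 27.4 and 20.7 against 15.2 and 15.7 CPM, Bmp2 at 67.5 and 51.8 against 72.1 and 58.8 CPM and Hes1 at 73.3 and 58.3 against 66.2 and 49.1 CPM.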

How the data were processed

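Polyadenylated stomach RNA was sequenced from both fragment ends, per the labels' protocols. The authors deposited raw counts for each Ensembl gene. The submitters' processing notes name GRCm38 and the tools bcl2fastq, STAR (2.7.9a) and, from Subread, featureCounts (2.0.3). Annotation release, strand setting and treatment of multi-mapping reads were not given in the sources used here. Of 40757 lines, 276 repeated a gene ID and were left out, and 26 symbols turned into dates were restored by ID. Positions came from GENCODE M21, which held 40340 of the IDs.

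Groups came from the labels. The tests were run with edgeR 4.0.16 under R 4.3.3: filterByExpr, TMM scaling, and a robust quasi-likelihood fit with 1 mean per group over all 8 libraries, which leaves 4 residual degrees of freedom. P-values were adjusted by Benjamini-Hochberg with a threshold of 0.05. Alternatives used limma 3.58.1, DESeq2 1.42.0, other scalings and fits without 1 library; the procedure was tested on simulated data. Depth was 58851837 to 80686621 counts per library; floors are 3 counts per library and cover counting error only.

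The comparison, the 59 gene lists and the tests were chosen with earlier results of these data known. Lists hold 763 genes, of which 38 had too few counts and 5 were not found under the symbols searched. By rule the text names every called gene, the called members of each list or else its 2 members with the highest mean CPM, and the 6 list genes with the widest gap between knockout libraries; other list members it names were chosen after their values were seen. 1 called gene and some list members are not reported here, and the counts over all genes include them.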

Additional observations from a re-analysis of the deposited data

How the results depend on the processing

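The count of called genes at 8 weeks (16 higher, 48 lower) moved under nearly every alternative, while none of the 64 genes changed sign in any of them. Their groups did not overlap in the main fit, which left little room for a change of sign. Library totals gave 5339 higher and 103 lower, and totals without Pgc gave 96 and 29. RLE size factors gave 16 and 46, DESeq2 1010 and 747, limma voom 2 and 20, voom with sample quality weights 1 and 11, and no filter on low counts 186 and 255. The 8-week libraries alone gave 0 and 0 with edgeR, with 2046 genes at an unadjusted p under 0.05. Leaving out 1 library gave 0 to 970 higher and 1 to 471 lower.

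A replicate block gave 23 higher and 40 lower, with 44 of the 64 genes called in both fits. Among the genes not called with the block were Pgc (adjusted p 0.053), Bhlha15 (0.059) and Tnfrsf12a (0.072). Replicate numbers follow the sample titles, and the library names number the samples otherwise. Deviations of libraries with the same replicate number correlated at 0.13 at 8 weeks and 0.47 at 3 weeks. The labels do not tie these 2 numbers to a shared animal or day, so the libraries are treated as unpaired.

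Library totals shift the median of all genes by 0.35 and reversed 6 list genes that were close to 0: Gata4 0.32, Col3a1 0.34, Mpo 0.32, Ctsd 0.28, Lamp1 0.23 and Itgb1 0.31 (log2). They changed the sign of 18 of 59 list medians; leaving out an 8-week library changed 2 to 9. In the 8-week libraries 1 count was 0.0147 to 0.0224 CPM, so counting error weighs most at the lowest levels. The 2 libraries per group limit every call. The cause of the changes in the counts was not tested.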
